A study of Mus musculus with 15 samples.

Results

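The Fam20 family of mouse has 3 genes, Fam20a, Fam20b and Fam20c, and all 3 were measured, by 4 probes, on arrays of lung cancer cells in which the p53 target gene Siva had been knocked down. The members were taken by gene name from the scanner files of the arrays, with every probe that carries one of the names. All 3 genes and all 4 probes were among the 22908 genes and 32188 probes that passed the filter for testing, well above background on 4 or more arrays. Fam20a met it on 3 of the 7 arrays with control hairpins and on all 8 with Siva hairpins, so it passed only through the latter. Fam20a was selected on the comparison of Siva hairpins with control hairpins, in which it ranked 3rd of 22908 genes by size of rise. Its values in every comparison of Siva hairpins with controls are therefore a description and carry no test. Fam20b and Fam20c came in by family name.

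Fam20 proteins are made in the secretory pathway, the route of endoplasmic reticulum and Golgi by which proteins leave the cell. Fam20c is the kinase that phosphorylates serines of most secreted phosphoproteins, among them those of milk, bone and tooth. Fam20a resembles a kinase but does not phosphorylate substrates itself; it pairs with Fam20c and raises its activity, and its loss in humans causes defective enamel and calcified kidneys. Fam20b phosphorylates a sugar, the xylose at the base of the linker on which the long chains of proteoglycans are built, and so promotes chain growth.

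The study compared LSZ2 and LSZ4, 2 lines of mouse non-small cell lung cancer, after infection with viruses that express a short hairpin RNA, on 15 one-colour Agilent arrays. The control hairpins were shGFP (in the vector pLKO.1) and shLacZ (in LL37), which target genes that mouse cells lack. The Siva hairpins were shSiva1 and shSiva2 (both in pLKO TRC2.0). There were 2 arrays for each of the 8 groups apart from shGFP in LSZ2, with 1; thus LSZ2 had 3 control arrays, LSZ4 had 4, and both had 4 arrays with a Siva hairpin, called Siva arrays here. Cells with shLacZ were not selected, whereas all others were kept in puromycin for 3 days, and cells were collected 2 days after plating. All control arrays lay on 1 slide and all Siva arrays on another, so slide, vector and Siva hairpin cannot be told apart. The labels do not say whether replicates are separate cultures, so that a p-value reflects only how far these arrays differ, which may be technical. In LSZ4 both shGFP arrays were treated as 1 hairpin, on which the labels are silent.

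Values below are log2 signals relative to the 75th percentile of the array, which is 0 on this scale; that percentile ran from 428 to 1029 intensity units, and the share of spots well above background from 49.0% to 60.6%. Differences on this scale come from limma with p-values adjusted over all 22908 genes (threshold 0.05), and levels of different probes cannot be set against each other. Siva1, the target, fell by 2.52 (standard error, SE, 0.26; adjusted p = 3.19e-05 in limma) to 17.4% of its control level. Of 6 epithelial markers, 6 were well above background on at least 1 array and 4 on all 15, whereas the lung markers Nkx2-1, Sftpc and Foxj1, the endothelial marker Cdh5 and the fibroblast marker Pdgfra were well above background on none. Other markers of those tissues were measured: Sftpb on 12 arrays, Scgb1a1 on 8, and Kdr, Pecam1, Vim, Col1a2 and the blood marker Cd3e on all 15. Among the markers, Epcam rose by 0.68 (adjusted p = 0.00988) and Pecam1 fell by 0.66 (adjusted p = 0.0173). No other marker tested passed, in a comparison in which 9.97% of all genes did. The other epithelial markers differed by -0.28 (Krt19) to 0.08 (Cldn4), and the endothelial marker Kdr by -0.21. The summed signal of the 6 epithelial markers ran from 1110 to 2750 times the 75th percentile on control arrays and from 1124 to 2268 on Siva arrays, and that of the 2 endothelial markers tested up to 12.1 and up to 9.73; their part in the results below was not tested. In total RNA of a culture, fewer cells of a type and less RNA per cell cannot be told apart.

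Each probe is 60 bases long, and the first 30 bases are shown, in lower case and 5′ to 3′, because they define what was read for each member. Positions are on the mouse build mm9, per the file headers.
Fam20a probe A_51_P430929: aaacgggatccactgaacctcatctttatc
Fam20b probe A_55_P2178247: tgctgtcttttctctacacccatggattct
Fam20c probe A_51_P117865: gagaaccatccagcagaccagagataacct
Fam20c probe A_55_P2157517: cgcagctgaagctcatcatgaccttccaga
The Fam20a probe matches the transcript NM_153782 at chr11:109534409-109534468 on the minus strand. The Fam20b probe matches NM_145413 at chr1:158611185-158611244, also on the minus strand. Both Fam20c probes match NM_030565 on the plus strand, the first at chr5:139285592-139285651 and the other at chr5:139242601-139242660, further towards the 5′ end of the transcript. The first Fam20c probe was the brighter and represented the gene in the fits.

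Fam20a, the pseudokinase partner, was faint on every control array and bright on every Siva array. In LSZ2 its log2 signal was -4.62 with shGFP and -4.14 and -4.35 with shLacZ. It was -1.86 and -1.33 with shSiva1 and -1.44 and -1.35 with shSiva2. The 3 control arrays averaged -4.37 ± 0.24 (SD, n = 3) and the 4 Siva arrays -1.49 ± 0.25 (SD, n = 4), with no overlap. In LSZ2 the gene was well above background on all 7 arrays, with intensities of 36.2 to 58.4 units with control hairpins and 260 to 354 units with Siva hairpins, so that this difference, 2.88 (SE 0.38) or 7.35-fold, was measured on both sides.

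In LSZ4 the contrast read wider, with lower control readings and higher Siva readings. Whether the effect differs between the lines could not be tested for Fam20a, for the reasons given below. The control arrays read -5.40 and -5.28 with shGFP and -7.25 and -5.94 with shLacZ. The Siva arrays read -0.34 and 0.01 with shSiva1 and -0.88 and -0.61 with shSiva2. On 0 of the 4 LSZ4 control arrays was Fam20a well above background, at intensities of 5.86 to 11.7 units, against 327 to 764 units on the 4 Siva arrays. The LSZ4 difference is therefore given as a bound under the deposited background subtraction. Each control array was given the higher of its own value and a floor, the lowest signal of any probe well above background there. So taken, Fam20a was at least 20.0-fold higher with Siva hairpins, a log2 difference of 4.32. For shSiva1 the bound was at least 24.5-fold and for shSiva2 at least 16.4-fold. The floor was not measured for this probe. With another background correction (normexp, below) the log2 difference was 2.58, so these bounds hold only for the deposited subtraction.

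**Figure D1:**
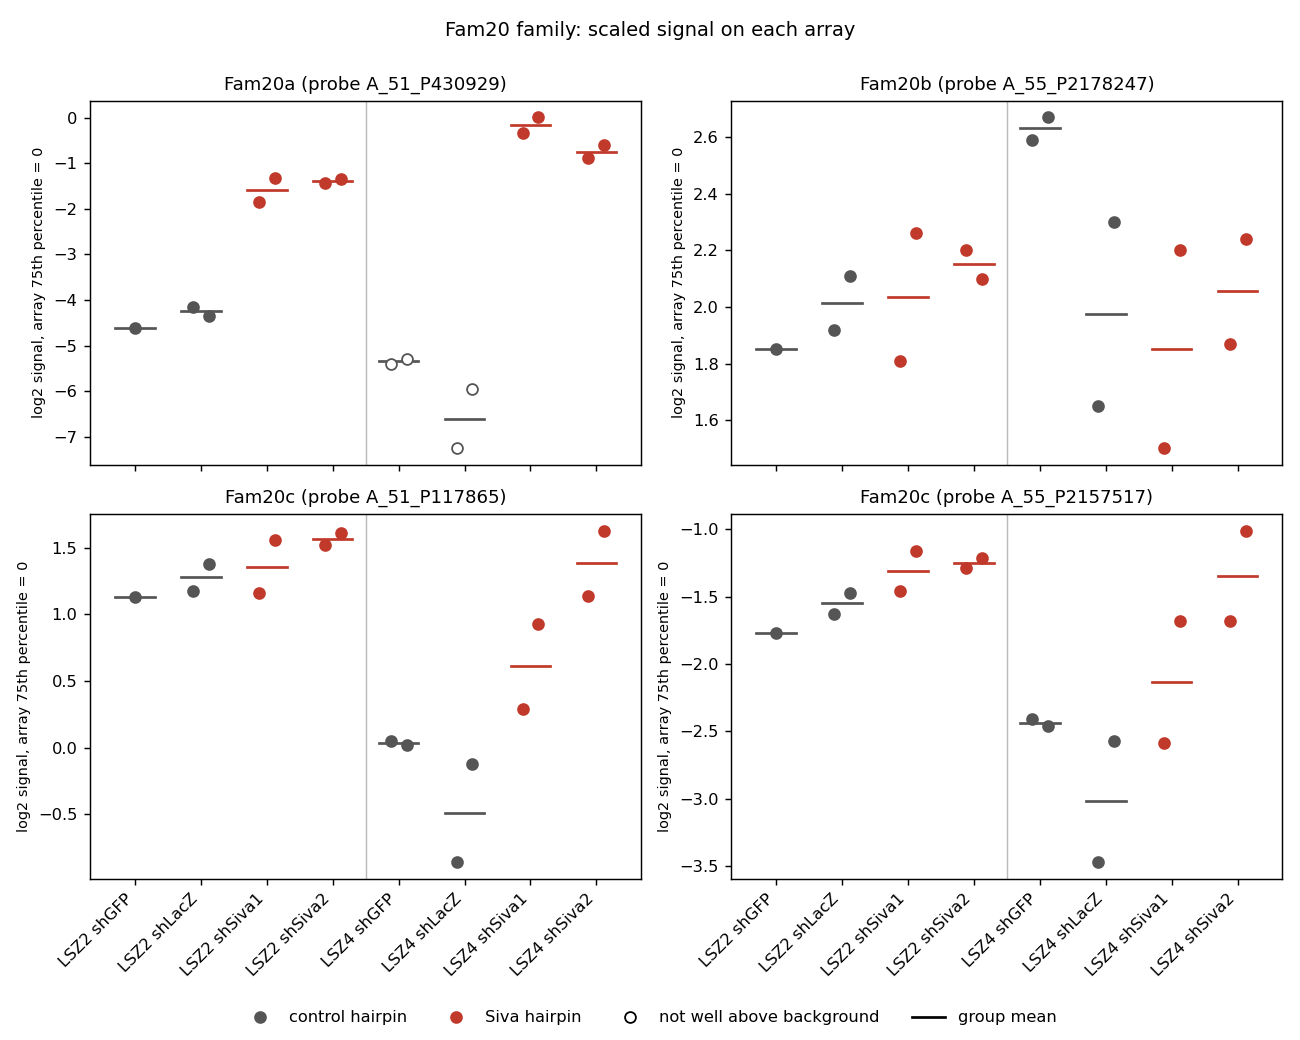
Scaled log2 signal (vertical axis, 75th percentile of the array = 0) of the 4 Fam20 probes in each line and hairpin group, 1 point for each array and a bar for the group mean; open points were not well above background, and the axes differ between panels. Fam20a separates Siva from control hairpins in both lines, Fam20c does so in LSZ4 at its first probe and in LSZ2 at its second, and Fam20b in neither. Over all genes, Siva arrays lay wholly above control arrays for 3.54% in LSZ4 and 9.02% in LSZ2.

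Ordered by mean, the Fam20a levels of the 8 groups were -0.16 in LSZ4 with shSiva1, -0.74 in LSZ4 with shSiva2, -1.39 in LSZ2 with shSiva2, -1.59 in LSZ2 with shSiva1, -4.25 in LSZ2 with shLacZ, -4.62 in LSZ2 with shGFP, -5.34 in LSZ4 with shGFP and -6.60 in LSZ4 with shLacZ. The 2 LSZ2 Siva groups overlapped, and the 2 LSZ4 control groups lie below background and have no order. A gap of 2.28 separated the lowest LSZ2 Siva array, with shSiva1, from the highest LSZ2 control array. Across both lines the Siva arrays ranged from -1.86 to 0.01 and the control arrays from -7.25 to -4.14, and Fam20a was above every control array of its line on 8 of 8 Siva arrays. Over all genes, every Siva array lay above every control array for 9.02% of genes in LSZ2 and for 3.54% in LSZ4; since Fam20a was selected on this contrast, nothing is read from its place among them.

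The fitted difference of Fam20a over both lines was 4.30 (SE 0.42), while the median of all genes was -0.12. Against shGFP alone it was 4.09 (SE 0.57) and against shLacZ alone 4.45 (SE 0.51); with shSiva1 it was 4.39 (SE 0.51) and with shSiva2 4.20 (SE 0.51). These values share control or Siva arrays and rest partly on LSZ4 controls below background. The size depends on how background was removed: with normexp correction and an offset of 50 the difference was 2.22 over both lines, 1.80 in LSZ2 and 2.58 in LSZ4.

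Comparisons that did not select Fam20a could be tested. The Siva hairpins were not shown to differ from each other: shSiva2 less shSiva1 was -0.19 (95% interval -1.42 to 1.04, adjusted p = 0.852 in limma), a comparison in which 19.5% of all genes passed. Within LSZ2 that difference was 0.20 (adjusted p = 0.857; 8.91% of genes passed) and within LSZ4 -0.58 (adjusted p = 0.315; 15.7% passed). Both of these comparisons were added after the data had been seen. The control hairpins, which differ in vector and in puromycin selection, gave a difference of -0.35 (shLacZ less shGFP, 95% interval -1.74 to 1.03, adjusted p = 0.690), and 1 gene of all, 0.00437%, passed there. Intervals this wide leave room for differences of over 2-fold between control hairpins. Fam20a was also below background on all 4 LSZ4 control arrays, and shGFP in LSZ2 had 1 array. No order of the control hairpins is therefore read from the -0.35.

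Between the lines, Fam20a was lower in LSZ4 than in LSZ2 among control arrays, by -1.60 (SE 0.38, adjusted p = 0.0284 in limma; 5.98% of genes passed). As the LSZ4 controls were below background, the bound, under the deposited background subtraction only, is that LSZ2 was at least 1.33-fold higher. Under normexp correction the sign turned, to 0.14 (adjusted p = 0.668), and the call was lost without the filter on dim probes (adjusted p = 0.0508) and when any of 4 arrays was left out, LSZ2 shGFP replicate 1, either LSZ2 shLacZ array or LSZ4 shLacZ replicate 2 (adjusted p up to 0.142). Among Siva arrays LSZ4 was higher by 1.04 (SE 0.35, adjusted p = 0.262; 1.65% of genes passed); without LSZ4 shLacZ replicate 1 the adjusted p was 0.0227. Over both arms the line difference was -0.18 (adjusted p = 0.741; 21.7% passed). The effect in LSZ4 read 2.64 above that in LSZ2 (SE 0.52), or at least 1.45 by the bound under the deposited background subtraction. Under normexp correction it was 0.78, so the bound does not hold across background corrections. The adjusted p was 0.201 in limma. Both effects belong to the contrast that selected Fam20a, and the LSZ4 controls were below background, so nothing is read from that p-value. In the comparison of effects between lines 0 of 22908 genes, 0%, passed limma's test, and 526 had an unadjusted p under 0.05. Without scaling of the arrays 9 genes passed.

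Fam20c, the kinase with which Fam20a pairs, read higher with Siva hairpins in LSZ4, where it passed the test at its first probe only. At the second probe the adjusted p in LSZ4 was 0.0777 in limma. The Fam20c difference in LSZ2 did not pass at either probe. In LSZ4 its first probe read 0.05 and 0.02 with shGFP, -0.86 and -0.12 with shLacZ, 0.29 and 0.93 with shSiva1, and 1.14 and 1.63 with shSiva2. The control mean was -0.23 ± 0.43 (SD, n = 4) and the Siva mean 1.0 ± 0.56 (SD, n = 4). All 4 Siva arrays lay above all 4 control arrays, as they did for 3.54% of all genes in LSZ4, and shSiva2 was above shSiva1. The rise was 1.22 (SE 0.27, adjusted p = 0.0185 in limma), or 2.34-fold, in a comparison in which 4.57% of genes passed and the median of all genes was -0.19; relative to that median it was 1.41.

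In LSZ2 the control level of Fam20c lay near that of LSZ4 with shSiva2. Its first probe read 1.13 with shGFP, 1.18 and 1.38 with shLacZ, 1.16 and 1.56 with shSiva1, and 1.52 and 1.61 with shSiva2. The means were 1.23 ± 0.13 (SD, n = 3) with control and 1.46 ± 0.21 (SD, n = 4) with Siva hairpins. Here 3 of 4 Siva arrays lay above every control array, whereas all of them did for 9.02% of genes in LSZ2. The difference of 0.23 (95% interval -0.39 to 0.85) did not pass (adjusted p = 0.904; 0.939% of genes passed). The effect was larger in LSZ4 by 0.99 (SE 0.39, unadjusted p = 0.0242), which did not pass after adjustment (adjusted p = 0.893), so a difference between the lines in the Fam20c response was not shown.

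Fam20c was above every control array of its line on 7 of 8 Siva arrays, a count not made over all genes. Over both lines Fam20c rose by 0.77 (SE 0.23, adjusted p = 0.0439), 1.70-fold, with 9.97% of all genes passing, 4.29% higher and 5.68% lower. That call is close to the threshold: it was lost with 11 of the 15 arrays left out 1 at a time (adjusted p up to 0.0856), and kept only without LSZ2 shLacZ replicate 2, LSZ4 shLacZ replicate 1 and the first shSiva1 array of either line. The rise in LSZ4 was lost when LSZ4 shSiva2 replicate 1 was left out (1.18, adjusted p = 0.0506). Both calls were also lost when line and hairpin were treated as a random block, with adjusted p = 0.128 for both lines and 0.112 for LSZ4.

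By hairpin, Fam20c rose with shSiva2 by 1.01 (SE 0.25, adjusted p = 0.0162; 12.2% of genes passed) and differed by 0.52 with shSiva1 (SE 0.25, adjusted p = 0.144; 25.9% passed). Without either LSZ4 shSiva2 array the shSiva2 call was lost (adjusted p = 0.0646 and 0.0837). The hairpins themselves were not shown to differ (0.49, 95% interval -0.12 to 1.10, adjusted p = 0.268), nor within LSZ4, where the difference was 0.78 (adjusted p = 0.116), or LSZ2, where it was 0.20 (adjusted p = 0.819). Against shLacZ the difference was 0.83 (SE 0.25, adjusted p = 0.0491; 11.2% passed), a call that 12 of 15 single omissions ended. Against shGFP it was 0.67 (SE 0.28, adjusted p = 0.0988; 20.5% passed), and it passed without LSZ4 shLacZ replicate 1 (adjusted p = 0.0395) and without scaling of the arrays (1.01, adjusted p = 0.0141). shLacZ and shGFP differed by -0.16 (95% interval -0.84 to 0.52, adjusted p = 0.714).

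The line difference of Fam20c was clearest among control arrays. LSZ4 controls lay between -0.86 and 0.05 and LSZ2 controls between 1.13 and 1.38, a difference of -1.46 (SE 0.29, adjusted p = 0.00962) that makes LSZ2 2.75-fold higher. Among Siva arrays the difference was -0.47 (SE 0.27, adjusted p = 0.503). Over both arms it was -0.92 (SE 0.23, adjusted p = 0.0175). The control call was lost at the other probe (adjusted p = 0.0570), under the random block (adjusted p = 0.0562) and when each of the 8 groups entered as 1 mean (adjusted p = 0.158). The call over both arms was lost in the last 2 of these fits (adjusted p = 0.0552 and 0.115). Leaving out LSZ2 shLacZ replicate 2 ended the control call (adjusted p = 0.0541), and leaving out LSZ2 shLacZ replicate 1 ended the call over both arms (adjusted p = 0.0515).

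**Figure D2:**
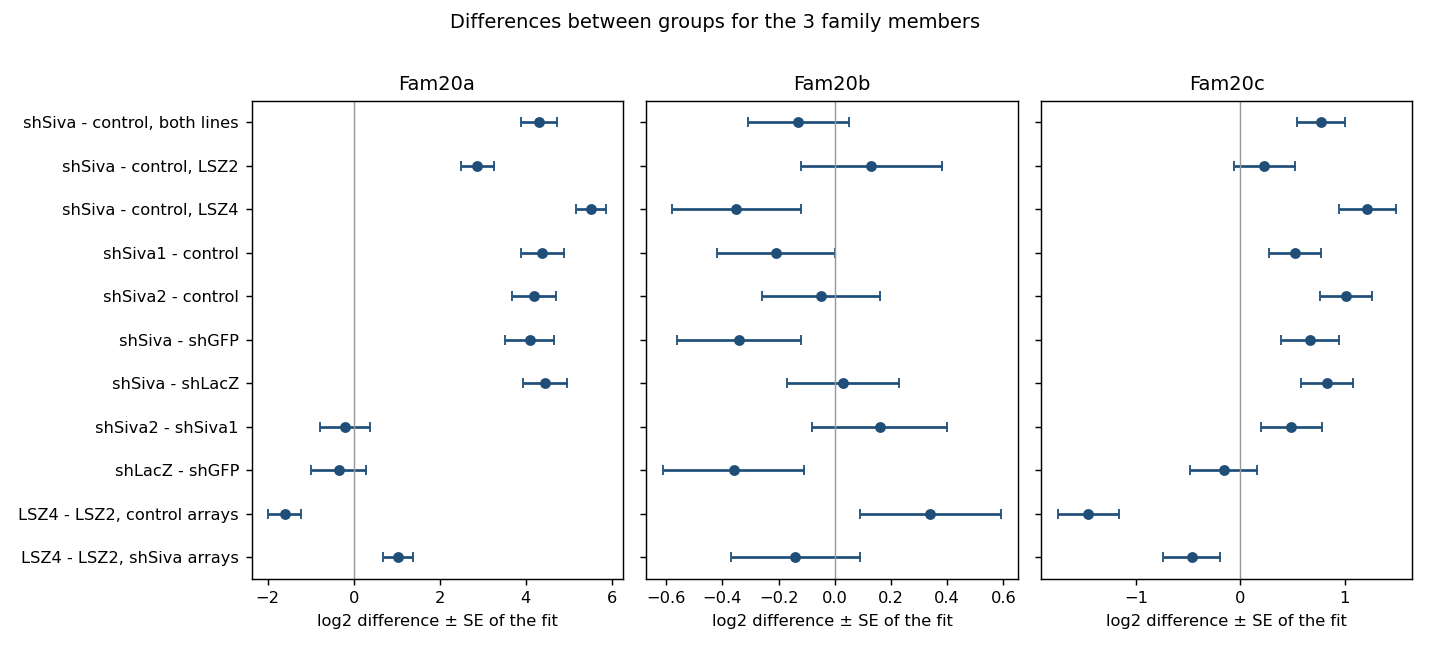
Log2 difference (horizontal axis, points) with the standard error of the fit (bars) for Fam20a, Fam20b and Fam20c in 11 comparisons named on the vertical axis; the horizontal scales differ between panels. The Fam20a values that involve LSZ4 controls rest on signals below background, Fam20c is positive in each comparison of Siva hairpins with controls and negative in LSZ4 against LSZ2, and the Fam20b points all lie between -0.36 and 0.34.

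The second Fam20c probe gave the same order of the 4 line and arm means, with a smaller difference in LSZ4. In LSZ4 it read -2.41 and -2.46 with shGFP, -3.47 and -2.57 with shLacZ, -2.59 and -1.68 with shSiva1, and -1.68 and -1.01 with shSiva2. Here 3 of 4 LSZ4 Siva arrays lay above every control array, as did all 4 in LSZ2, where controls ran from -1.77 to -1.47 and Siva arrays from -1.46 to -1.16. Over all genes, every Siva array lay above every control array for 3.54% in LSZ4 and 9.02% in LSZ2. The differences were 0.99 (SE 0.30, adjusted p = 0.0777) in LSZ4, 0.34 (SE 0.32, adjusted p = 0.843) in LSZ2 and 0.69 (SE 0.23, adjusted p = 0.0686) over both lines, none of them past the threshold when every probe was tested on its own. With shSiva2 the rise of 0.90 (SE 0.26, adjusted p = 0.0343) passed at this probe as at the first. Over the 15 arrays the probes correlated with Pearson's r = 0.98, a description of signals that share arrays, scaling and transcript.

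**Figure D3:**
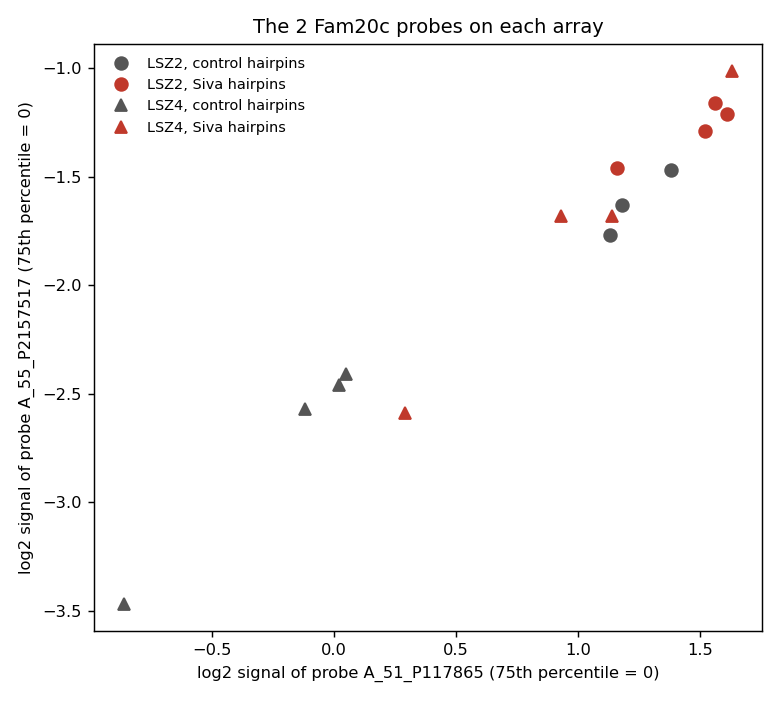
Scaled log2 signal of the first Fam20c probe (horizontal axis) against the second (vertical axis), 1 point for each of the 15 arrays, by line (shape) and hairpin arm (colour). The 4 LSZ4 control arrays and 1 LSZ4 shSiva1 array lie at the low end of both probes.

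In intensity units, before scaling, the first Fam20c probe read 443 to 531 on LSZ4 control arrays, 1115 and 1177 with shSiva1 and 1386 and 1544 with shSiva2, so replicate arrays differed by at most 1.11-fold within an LSZ4 group. The scaled values of the same pairs are further apart, for instance 0.29 and 0.93 with shSiva1, where the 75th percentiles were 964 and 586. Fam20b behaved likewise in LSZ4, with 2730 and 2698 units on those arrays and 1.5 and 2.20 after scaling. Since a scaled value is the log2 intensity less the log2 of this percentile, the added distance within these pairs is that of the percentiles. Why the percentiles differed was not tested.

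Fam20b, the xylose kinase, was bright on all 15 arrays and did not pass in any comparison. In LSZ2 it read 1.85 with shGFP, 1.92 and 2.11 with shLacZ, 1.81 and 2.26 with shSiva1, and 2.20 and 2.10 with shSiva2. In LSZ4 it read 2.59 and 2.67 with shGFP, 1.65 and 2.30 with shLacZ, 1.5 and 2.20 with shSiva1, and 1.87 and 2.24 with shSiva2. Siva and control arrays overlapped in both lines, although both shGFP arrays of LSZ4 lay above every other LSZ4 array. The intensity ran from 2304 to 4036 units, a 1.75-fold range over all arrays, against 6.19-fold for the first Fam20c probe.

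With Siva hairpins Fam20b differed by -0.13 over both lines (95% interval -0.50 to 0.25, adjusted p = 0.697 in limma), by 0.13 in LSZ2 (-0.41 to 0.67, adjusted p = 0.959) and by -0.35 in LSZ4 (-0.85 to 0.15, adjusted p = 0.390). Relative to the median of all genes the difference over both lines was -0.01. The lines differed by 0.08 (-0.29 to 0.46, adjusted p = 0.714), shSiva2 from shSiva1 by 0.16 (-0.35 to 0.67, adjusted p = 0.685) and shLacZ from shGFP by -0.36 (-0.90 to 0.17, adjusted p = 0.354). Against shGFP alone it was -0.34 (adjusted p = 0.261) and against shLacZ alone 0.03 (adjusted p = 0.958); the former was -0.66 and passed without LSZ2 shGFP replicate 1 (adjusted p = 0.0406). Without LSZ4 shLacZ replicate 1, the LSZ4 difference was -0.57 and passed (adjusted p = 0.0493), as did the line difference among control arrays, 0.56 (adjusted p = 0.0377). Without scaling of the arrays the line difference turned to -0.47 and passed (adjusted p = 0.00157); in these units all LSZ4 arrays read 2910 units or less and all LSZ2 arrays 3217 or more.

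Across the 15 arrays Fam20a and Fam20c had a Pearson's r of 0.68, Fam20a and Fam20b of -0.18, and Fam20b and Fam20c of 0.02; the points share arrays, scaling and the 8 groups, so these are descriptions. By the same measure, over 13418 genes with ordinary symbols, the 5 genes most like each member were listed. For Fam20a they were Cryab (0.97), a small heat shock protein, Fbxo36 (0.97), an F-box protein, Wnt7b (0.96), a Wnt ligand, Hspb2 (0.96), another small heat shock protein, and Hspa2 (0.96), an Hsp70 chaperone, where the 99th percentile of r over all genes was 0.84. With Siva hairpins these differed by 2.23 (Cryab), 1.47 (Fbxo36), 1.91 (Wnt7b), 2.03 (Hspb2) and 1.65 (Hspa2) over both lines. Fam20a was selected on that contrast, so differences of genes chosen for likeness to it follow from the choice. They are a description only.

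For Fam20c they were Crb3 (0.97), a cell polarity protein, Srgap1 (0.95), a regulator of small GTPases, P2ry6 (0.95), a nucleotide receptor, Krt33a (0.95), a hair keratin, and Xpnpep2 (0.93), an aminopeptidase, with a 99th percentile of 0.79. In LSZ4 they differed with Siva hairpins by 1.08 (Crb3), 2.94 (Srgap1), 4.01 (P2ry6), 1.70 (Krt33a) and 0.95 (Xpnpep2), and in LSZ2 by 0.34, 0.49, 1.55, 1.08 and 0.27 in the same order. As these genes were chosen for likeness to Fam20c, their differences partly repeat its own and are a description only. For Fam20b they were Ankrd39 (0.97), Xylb (0.97), Coq4 (0.97), Nek6 (0.96) and Cbll1 (0.96), but there the median gene already had an r of 0.46 and the 99th percentile was 0.91.

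Genes related to the family by function were described from 4 lists. Their counts stand beside 4.29% of all genes called higher and 5.68% called lower over both lines. Of 10 other kinases of the secretory pathway, 6 were measured well enough to test; 1 was called higher over both lines, 0 lower, and their median difference was 0.19, beside -0.12 for all genes. The one called was Fjx1, the relative of a kinase of fly cadherins, with a mean of -5.87 on control and -4.07 on Siva arrays. Its signal exceeded background clearly on 1 of the 7 control arrays and on all 8 Siva arrays, so it passed the filter only through the latter; its values are a description, and with a filter on all arrays 0 kinases were called. Pomk, which phosphorylates the mannose of dystroglycan, differed by 0.18 (SE 0.14) and Pkdcc, a secreted tyrosine kinase, by -0.07 (SE 0.25), neither past the threshold.

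The partners of Fam20b are the enzymes that build the proteoglycan linker and start its chains. Of 17, 16 were tested, and 1 rose and 0 fell, beside 4.29% higher and 5.68% lower over all genes. Their median difference was 0.13. The gene that rose was Pxylp1, the phosphatase that removes the xylose phosphate placed by Fam20b, by 0.83 (SE 0.15, adjusted p = 0.00274); its mean went from 0.67 on control arrays to 1.49 on Siva arrays. Xylt1, which adds the xylose, differed by -0.37 (adjusted p = 0.335) and B4galt7, which adds the next sugar, by -0.49 (adjusted p = 0.214).

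Among 16 proteins known as substrates of Fam20c, 9 could be tested at the transcript level. Of these 3 rose and 0 fell, beside 4.29% higher and 5.68% lower over all genes. Their median difference was -0.18. Fn1, the matrix protein fibronectin, rose by 2.40 (SE 0.39, adjusted p = 0.00120), Igfbp3, a binding protein of insulin-like growth factors, by 1.73 (SE 0.34, adjusted p = 0.00507), and Bmp4, a bone morphogenetic protein, by 1.0 (SE 0.30, adjusted p = 0.0453). Within LSZ4 Fn1 and Igfbp3 passed and Bmp4 did not (adjusted p = 0.125 in limma), and within LSZ2 none of them passed. Ero1a, an oxidase of the endoplasmic reticulum, differed by -0.86 (adjusted p = 0.0551) and Spp1, osteopontin, by -0.18 (adjusted p = 0.720). The casein genes Csn1s1 and Csn2 were well above background on 0 arrays. The arrays do not measure phosphorylation.

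Of 18 genes of enamel formation, the process in which Fam20a and Fam20c are best known, 10 were tested, 2 were called higher and 0 lower, with a median of -0.02. The calls fell to 1 with the random block and to 0 under normexp correction, with the filter on all arrays and with the means of the 8 groups. Wdr72, needed for enamel maturation, exceeded background clearly on 2 of the 7 control arrays and 7 of the 8 Siva arrays, and Itgb6, an integrin subunit of epithelia, on 3 and 6. Both passed the filter only through the Siva arrays, so their means, -6.10 and -3.68 for Wdr72 and -5.34 and -4.02 for Itgb6 on control and Siva arrays, are a description. The enamel matrix genes Ambn and Enam were well above background on 0 arrays and Amelx on 1. Within LSZ4 4.57% of all genes passed in either direction, and 51.8% of those were higher. There 1 of 6 tested kinases, 1 of 16 linker genes, 2 of 9 substrates and 2 of 10 enamel genes were called higher. Over both lines 4.29% of all genes were called higher, beside 1 of 6, 1 of 16, 3 of 9 and 2 of 10 tested members of the lists, Fjx1, Wdr72 and Itgb6 among them; as these lists were drawn up with earlier results of the arrays known, the counts support nothing beyond themselves.

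**Figure D4:**
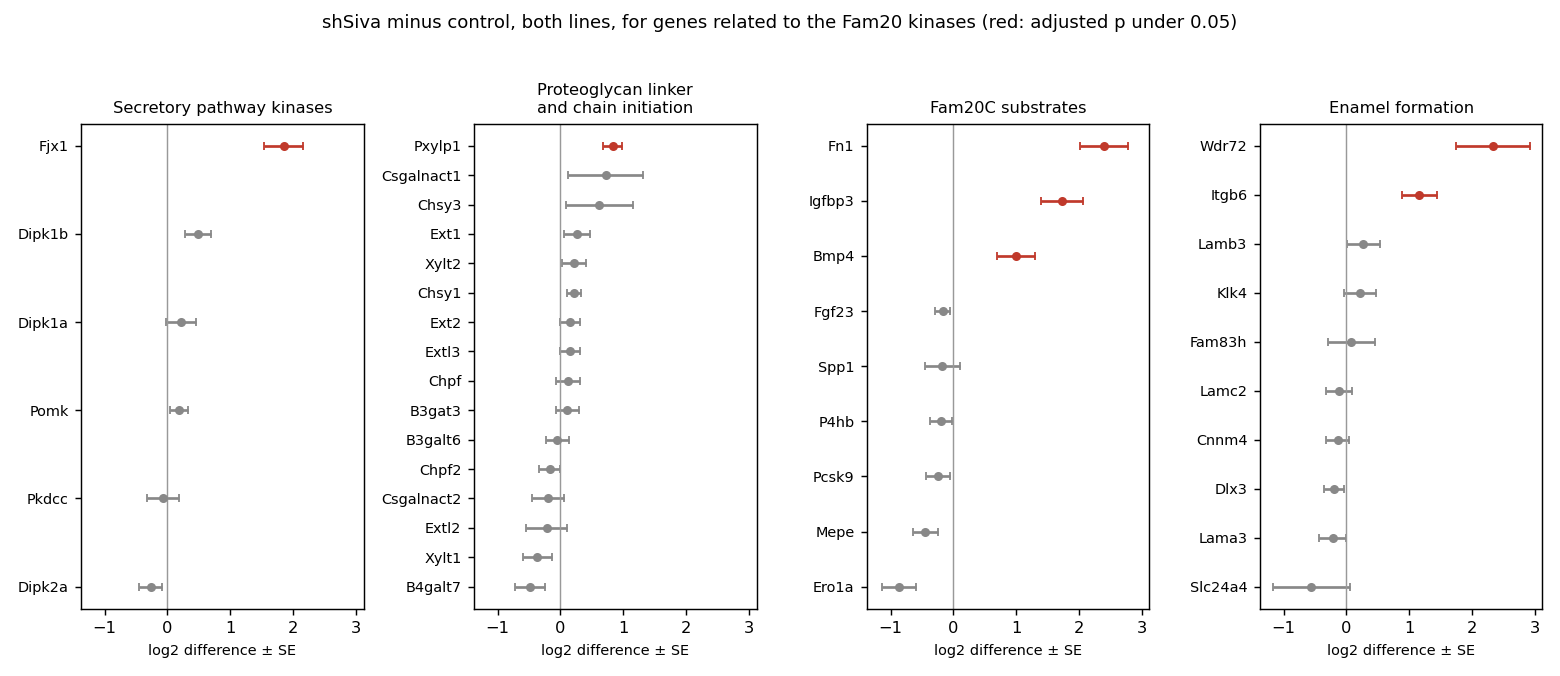
Log2 difference between Siva and control arrays over both lines (horizontal axis, points, with the standard error as bars) for each tested gene of the 4 lists; genes with an adjusted p under 0.05 are red. The 7 genes in red, of which Fjx1, Wdr72 and Itgb6 passed the filter only through the Siva arrays, lie to the right of 0 and the other genes spread on both sides of it.

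Because Fam20a and Fam20c both read higher with Siva hairpins in LSZ4, the 250 bases before their annotated starts are shown. Fam20c passed the test there at its first probe only, and Fam20a carries no test. The windows are from RefSeq on GRCm38.p6 (a build other than that of the probe positions), 5′ to 3′ on the gene's strand. Capitals mark the letters CCAAT on either strand (ATTGG on the other).
Fam20a, chr11:109722239-109722488, minus strand: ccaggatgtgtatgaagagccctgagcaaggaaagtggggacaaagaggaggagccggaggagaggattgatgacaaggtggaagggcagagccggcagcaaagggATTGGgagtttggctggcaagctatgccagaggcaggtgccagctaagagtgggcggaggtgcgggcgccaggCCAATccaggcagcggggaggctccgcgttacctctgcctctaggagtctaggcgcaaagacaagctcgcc
Fam20c, chr5:138754831-138755080, plus strand: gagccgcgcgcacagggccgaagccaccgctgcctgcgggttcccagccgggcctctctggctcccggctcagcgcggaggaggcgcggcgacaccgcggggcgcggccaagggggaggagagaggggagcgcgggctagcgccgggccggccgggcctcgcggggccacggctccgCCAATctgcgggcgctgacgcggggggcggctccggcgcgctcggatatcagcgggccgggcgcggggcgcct
The Fam20a window holds 2 CCAAT matches and the Fam20c window 1, as does that of Fam20b (chr1:156718911-156719160), and 33.8% of 32851 promoters hold at least 1. GGGCGG, searched on both strands, occurred 1 time in Fam20a, 3 times in Fam20b and 1 time in Fam20c, and in 32.7% of all windows. TATAAA and TGACTCA occurred in 0 of the 3, against 12.4% and 4.46% of all. The GC content was 61.2% for Fam20a and 81.2% for both Fam20b and Fam20c, where the median over all windows was 52.4%, and the windows held 10, 36 and 41 CG pairs, with a median of 6. In base composition Fam20c is thus nearer to Fam20b than to Fam20a. These matches describe letters only, and factor binding was not measured on these arrays.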

How the data were processed

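Total RNA (200 ng, Cy3) of 15 samples was hybridised to 1-colour Agilent arrays, per the labels. The scanner files give the intensity of each spot as deposited by the authors, background-subtracted (Feature Extraction, version 10.7.3.1, in the headers); the deposited value table holds log2 values and served as an alternative. Here control spots and outlier-flagged spots were left out, spots of a probe averaged, and log2 signals reduced by the array's 75th percentile. Testing required a probe to exceed background well on 4 or more arrays and to lack a value on no more than 3, which 32188 of 55681 met; the brightest probe stood for a gene. Symbols were updated through accessions for 26582 probes, and 29099 kept the file's name. limma 3.58.1 in R 4.3.3 (with the data.table package, 1.17.8) fitted all 15 arrays, with line and arm, line by arm means, line and hairpins, or means of the 8 groups as terms; the lone array of a group was given the spread of the rest. Standard deviations are over arrays. The number of arrays limits precision. The fits were tested on simulated data.

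The members and gene lists were chosen with earlier results of these data known. Named genes are the members, Siva1, called list members (at most 5 of a list) with up to 2 others as examples, the markers, and the 5 genes most correlated with each member; the casein and enamel matrix genes were singled out after their values were seen. Alternatives covered scaling, background correction, filters, probe choice, blocks and omission of each array. Every column of the value table was mapped.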

Additional observations from a re-analysis of the deposited data

Results flagged for a closer look

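At the second Fam20c probe (A_55_P2157517), 1 of the 4 LSZ4 control arrays, shLacZ replicate 1, stood apart from the other three at a log2 signal of -3.47, where the others read -2.41, -2.46 and -2.57. Its gap to the nearest array exceeded Dixon's critical value; 12 groups were checked, and chance alone marks about 1 group in 20. Before scaling, the array read 80.8 intensity units at this probe, within the 80.6 to 97.4 units of its group, and its 75th percentile of 895 was the highest among LSZ4 controls.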

How the results depend on the processing

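Of the member tests, 789 stayed on their side of the threshold under an alternative, 56 lost a call, 11 gained one and 2 reversed. These counts include the Fam20a difference between lines in the Siva effect, from whose p-value nothing is read. The reversals were Fam20a between lines in control arrays under normexp (0.14) and Fam20b between lines without scaling, an alternative added after the data were seen (-0.47). Under normexp the Siva difference of Fam20a moved to 2.22 over both lines, 1.80 in LSZ2 and 2.58 in LSZ4. Calls lost were Fam20a between lines in control arrays without the filter (-1.60), with line and hairpin as random block (-1.57) and with only the means of the 8 groups (-1.53), and Fam20c over both lines with normexp (0.65), no filter (0.77), mean of probes (0.73), the other probe (0.69), the random block (0.75) and group means (0.74). Fam20c in LSZ4 lost its call with the other probe (0.99), the random block (1.22) and group means (1.22). Between lines its call was lost with the random block (-0.94) and group means (-0.95). Between lines in control arrays it was lost with the other probe (-1.10), the random block (-1.45) and group means (-1.43). With shSiva2 the Fam20c call was lost with group means (0.98). Against shLacZ the Fam20c call was lost with normexp (0.71), no filter (0.83) and mean of probes (0.80). It was also lost with the other probe (0.77), the random block (0.83) and group means (0.83). Without scaling, calls were gained for Fam20c in the difference between lines in the Siva effect (1.29), with shSiva1 (0.71) and against shGFP (1.01). Calls between lines in Siva arrays were gained for Fam20b (-0.56) and Fam20c (-0.88). For Fam20a the difference between lines in the Siva effect read 2.93 without scaling. Nothing is read from its p-value, because both effects belong to the contrast that selected Fam20a and the LSZ4 controls were below background. The cause of these changes was not tested.

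With 1 array left out at a time, Fam20a ran from 3.98 to 4.51 over both lines, 2.75 to 3.0 in LSZ2, 5.09 to 5.74 in LSZ4, -1.83 to -1.17 between lines in control arrays and 0.89 to 1.18 in Siva arrays. Fam20c ran from 0.62 to 0.86 over both lines, 1.01 to 1.46 in LSZ4, -1.07 to -0.80 between lines and -1.55 to -1.25 in control arrays. Fam20b ran from -0.57 to -0.20 in LSZ4 and from 0.22 to 0.56 between lines in control arrays.

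Replicate numbers did not pair the arrays: deviations of like-numbered arrays correlated at -0.21 to 0.73 over 21 pairs of groups. With a replicate block, the Siva difference was 4.28 for Fam20a, -0.15 for Fam20b and 0.74 for Fam20c over both lines (adjusted p = 0.0396 for the last in limma), and no member's call changed.

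List calls moved as follows. Enamel genes called fell from 2 to 0 under normexp, with the filter on all arrays and with group means, and to 1 with the random block, and ran from 1 to 2 with arrays left out. Substrates fell from 3 to 0 with group means and ran from 2 to 4. Linker genes moved from 1 to 3 under quantile normalization and to 0 with group means, and kinases from 1 to 0 under normexp and the filter on all arrays.

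Over all genes, calls with Siva hairpins were 2285, between 292 (group means) and 3735 (no scaling), with 43.0% higher and between 35.1% and 68.8% over the alternatives; in LSZ2 215 (0 to 678) and in LSZ4 1047 (34 to 2098). Between lines they were 4968 (452 to 8742), in control arrays 1370 (152 to 2464) and in Siva arrays 379 (74 to 611). For the hairpins they were 4475 (2145 to 6153), for the control hairpins 1 (0 to 4) and for the difference between lines 0 (0 to 9). Without arrays 1 at a time, calls ran from 1545 to 3786 with Siva hairpins, 75 to 378 in LSZ2, 498 to 6059 in LSZ4, 1319 to 12038 between lines, 363 to 12849 in control arrays, 248 to 544 in Siva arrays, 3479 to 5623 for the hairpins, 0 to 5 for the control hairpins and 0 to 3 for the difference between lines; without LSZ4 shLacZ replicate 1 came the highest count of all but the last 2. Fam20a in LSZ4 controls was below background, which limits its difference to a bound that depends on how background was removed.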
